A study of Mus musculus with 32 samples.

Results

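Differentiating oligodendrocyte precursors (differentiating OPCs) of the mouse median eminence (ME) were examined as a group of 130 cells out of 5982 single cells. The cells were selected on the unique molecular identifiers (UMIs, 1 per captured transcript) of 7 genes. A member had at least 5 UMIs of Fyn, at least 5 UMIs of Bmp4, Enpp6 and Gpr17 together, and under 20 UMIs of Mal, Ermn and Opalin together. The ME came from male C57B/L6 mice aged 40 to 47 days, 5 of which were fasted overnight (16 h) and 5 of which were fasted and then refed normal chow for 1 h. The ME of the 5 mice of each condition was pooled, dissociated with papain, and split over 2 droplet-based 10x Genomics 3′ libraries, which makes 4 libraries in all. The barcodes carry a suffix (1, 2, 3 or 4, the barcode number below) that the sources used here tie to no library or condition. All cells were therefore treated as a single pooled sample of both conditions, fasted and refed cells were not compared, and no test was run.

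Oligodendrocyte precursor cells (OPCs) persist in the adult brain, where they divide and generate oligodendrocytes, the cells that wrap axons in myelin. A precursor that commits to differentiation leaves the cell cycle, loses receptors and proteoglycans of the precursor such as PDGFRα and NG2, and passes through a short premyelinating stage before it makes compact myelin. Gpr17, Bmp4, Enpp6, Bcas1 and Tcf7l2 are genes for which this passing stage is known, and the kinase Fyn acts in the growth of the processes that contact axons.

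The matrix held 29288898 UMIs of 27998 genes, and the 4 barcode numbers held 1359 to 1642 cells. Members had 4057 to 23054 UMIs per cell with a median of 9035.5, against a median of 3837 over all cells. A member had 2072 to 4763 detected genes, and 1.30% to 7.07% of its UMIs were mitochondrial. Cells were also clustered on variable genes, without leaving out the 7 genes of the rule. Of the 130 members, 125 lay in 1 cluster of 130 cells that took its name, diffOPC-like, from markers of this stage. The rule genes Fyn, Bmp4, Enpp6 and Gpr17 are among those markers. The overlap is therefore no independent support for the group. The other 5 members lay in a cluster of 88 cells named mature oligodendrocyte-like (MOL-like). The comparison groups were the 310 OPC-like cells (median 4024.5 UMIs) and the 661 MOL-like cells (median 6144 UMIs) outside the rule. None of the 50 cells called doublets was a member. There were 21 barcode sequences found under more than 1 number, and 1 member carried such a barcode. Levels are given as UMIs of a gene per 1e+06 UMIs of the summed cells (CPM). Intervals at the 95% level, exact Poisson for CPM and exact Clopper-Pearson for shares, cover counting error only, since UMIs of 1 cell are not independent and no difference between mice is in them.

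Differentiating OPCs made up 2.17% of all cells (95% interval 1.82% to 2.58%) and 11.8% of the 1106 cells of the oligodendrocyte lineage (9.91% to 13.8%). Barcode number 1 held 39 members, number 2 held 30, number 3 held 31 and number 4 held 30. As a share of all cells this was 2.38%, 2.01%, 2.28% and 2.02%, and the intervals of the 4 shares overlapped. As a share of the lineage it was 12.4%, 12.3%, 11.4% and 10.8%.

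The genes that chose the members are given as a description only. Fyn, a Src-family kinase (chromosome 10, 39368855 to 39565381 on GRCm38), had 3087 CPM in members (2988 to 3188), and 2968, 3197, 3108 and 3118 CPM in barcode numbers 1 to 4. Each member had 6 to 63 UMIs of Fyn, with a median of 28. Bmp4, a secreted bone morphogenetic protein (chromosome 14, 46383520 to 46390669), had 1239 CPM (1177 to 1304), and 1166, 1219, 1206 and 1376 CPM by number. These levels lay close together, and members held 85.6% of all Bmp4 UMIs of the matrix although they held 4.11% of all UMIs. Enpp6, a choline phosphodiesterase (chromosome 8, 46986887 to 47096762), had 1089.8 CPM (1032 to 1150), with 1191, 995, 1246 and 887 CPM by number. Gpr17, a G protein-coupled receptor (chromosome 18, 31942997 to 31949636), had 993 CPM (938 to 1051), with 1068, 1269, 764 and 917 CPM by number. The lowest level of Gpr17 was in number 3, where Enpp6 was highest. A UMI of Bmp4 was found in 113 members, one of Enpp6 in 124 and one of Gpr17 in 128. Among microglia-like cells, which should lack these genes and had a median of 3079.5 UMIs, the shares were 1.24%, 0.249% and 2.49%. With each cell of at least 3000 UMIs thinned to that number, Bmp4 was detected in 84.6% of members and in 0.469% of microglia-like cells. All 130 members were kept in this step, while 189 of the 402 microglia-like cells had fewer UMIs and were left out.

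Few cells lay near the thresholds. Of the members, 11 had 6 to 9 UMIs of Fyn, 2 had 5 to 9 UMIs of Bmp4, Enpp6 and Gpr17 together, and 3 had 5 or 6 UMIs of Mal, Ermn and Opalin together, the highest sum of these 3 genes in any member being 6. Just outside, 5 cells had 3 or 4 UMIs of Fyn and passed the other conditions, 1 neuron-like cell with 5 UMIs of Fyn had 0 UMIs of the 3 marker genes, and 3 MOL-like cells passed on Fyn and the markers but had 24 to 61 UMIs of Mal, Ermn and Opalin. The 5 cells of the diffOPC-like cluster that were no members had 0 to 4 UMIs of Fyn and a median depth of 4909 UMIs. A threshold in UMIs is harder to reach for a shallow cell. With the thresholds set in CPM, 140 cells were found.

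**Figure D1:**
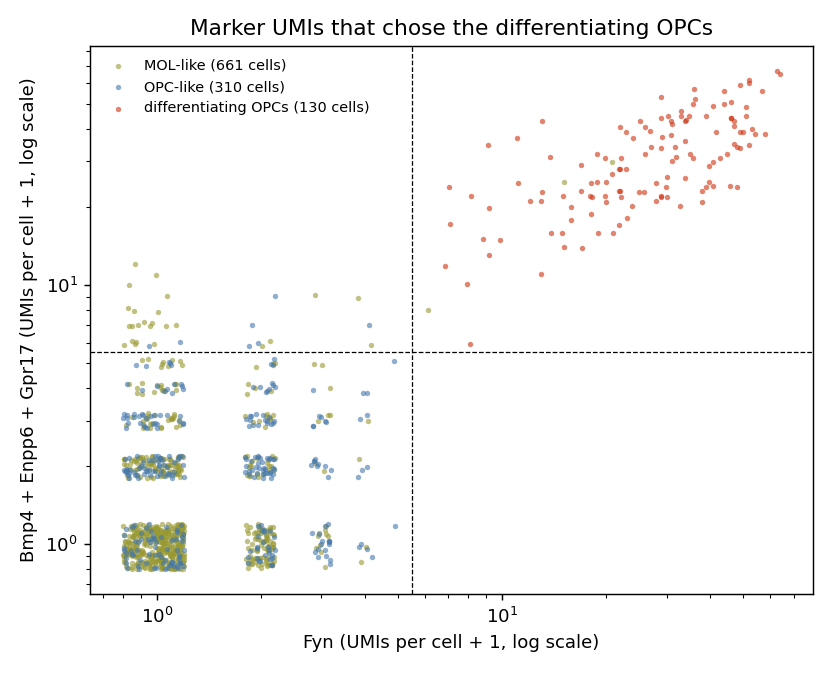
UMIs per cell of Fyn (x axis) and of Bmp4, Enpp6 and Gpr17 together (y axis), each plus 1 on a log scale with small random shifts, for the 130 members, 310 OPC-like and 661 MOL-like cells; dashed lines mark the minimum of 5 UMIs. Members fill the upper right, and the 3 MOL-like cells found there had 24 or more UMIs of Mal, Ermn and Opalin.

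The given markers that the rule did not use were found in nearly every member. Tnr, the matrix protein tenascin-R (chromosome 1, 159523769 to 159931729), had 1440, 1493, 1456 and 1177 CPM in barcode numbers 1 to 4, and every member had between 1 and 31 UMIs of it. Its level over all members was 1389 CPM (1323 to 1457), against 515 CPM in OPC-like and 9.94 CPM in MOL-like cells. Bcas1, a protein of young myelinating oligodendrocytes (chromosome 2, 170346991 to 170427845), had 935 CPM (882 to 992), against 90.4 and 96.5 CPM, and a UMI in 128 members. In microglia-like cells, 3.48% had a UMI of Tnr and 1.74% one of Bcas1. Tcf7l2, a transcription factor that acts with β-catenin (chromosome 19, 55741820 to 55933654), had 675 CPM (629 to 723) and a UMI in 91.5% of members, against 14.9% of microglia-like cells. Of the 130 members, 96 had a UMI of each of Bmp4, Enpp6, Gpr17, Tcf7l2, Bcas1 and Tnr. Of these genes Bmp4, Enpp6 and Gpr17 belong to the rule. Tcf7l2, Bcas1 and Tnr lie outside it, but they were given as markers of this stage and are no independent support for the label. With cells thinned to equal depth as above, Tnr was detected in 96.2% of members and in 76.9% of OPC-like cells. Bcas1 was detected in 90.8% and 24.5%, and Tcf7l2 in 73.8% and 18.9%, in the same order. In 19 members there was also a UMI of the precursor genes Pdgfra or Cspg4.

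To describe how members differed from the cells before and after them in the lineage, summed UMIs were compared on the log2(CPM + 10) scale, without the 7 genes of the rule. The scale understates the difference of low genes, and a difference of at least 1 log2 unit was counted. As these UMIs also defined the groups, the counts describe the groups and test nothing. Among 6938 genes with at least 50 UMIs in members and OPC-like cells, 446 (6.43%) were higher and 877 (12.6%) were lower in members. Among 8090 genes with at least 50 UMIs in members and MOL-like cells, 1123 (13.9%) were higher and 637 (7.87%) were lower. The median difference was -0.17 against OPC-like and 0.28 against MOL-like cells. Of the 6501 genes in both comparisons, 238 were higher in members than in both groups and 85 were lower than in both. Only 42 genes were higher than in OPC-like and lower than in MOL-like cells, an intermediate level, and 106 showed the opposite order. The counts given below for gene lists are to be read beside these percentages and medians, as the lists were written with results of these data known.

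Lineage transcription factors of members did not follow 1 neighbour, and some were above both. Of 24 factors compared with OPC-like cells, 8 were higher and 7 were lower in members, with a median difference of 0.13, and of 25 compared with MOL-like cells, 11 were higher and 2 were lower, with a median of 0.23. Tcf7l2 was 2.96 log2 units above OPC-like cells (77.7 CPM) and 3.84 above MOL-like cells (37.8 CPM). By barcode number it had 552, 527, 925 and 685 CPM, highest in number 3. Sox4, which is common in immature cells of many lineages, had 1143, 1190, 1515 and 1077 CPM by number, and 1230 CPM (1168 to 1295) over all members, against 332 CPM in OPC-like and 21.6 CPM in MOL-like cells. Nkx2-2 (238 CPM against 112 and 27.2 CPM), a homeobox factor required for differentiation, and Zfp488 (110 CPM against 42.8 and 17.4 CPM) had their highest level of the 3 groups in members as well. Myrf, the factor that switches on myelin genes, had 149, 116, 174 and 100 CPM by number. Its 136 CPM in members stood against 137 CPM in MOL-like cells and 14.3 CPM in OPC-like cells. St18 likewise had 54.8 CPM in members and 64.9 CPM in the MOL-like group, against 0.793 CPM in OPC-like cells.

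Other factors were far below the level of the precursor. Hes5, a target of Notch, had 18.3 CPM against 679 CPM, and Id2, an inhibitor of differentiation, 16.6 CPM against 239 CPM. For comparison, microglia-like cells had 29.9 CPM of Hes5 and 88.9 CPM of Id2. Sox11 and Sox5 were between the groups, with 41.5 and 29.1 CPM against 247 and 127 CPM in OPC-like cells. Olig1 had 1128 CPM in members, 3243 CPM in OPC-like and 1298 CPM in MOL-like cells, and Olig2 had 482, 961 and 136 CPM in the same order. Sox10, which the whole lineage uses, had 393 CPM in members, 377 CPM in OPC-like and 173 CPM in MOL-like cells. The mature factor Nkx6-2 had 133 CPM (MOL-like cells 655 CPM), and Zfp536 had 24.9 CPM against 160 CPM.

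**Figure D2:**
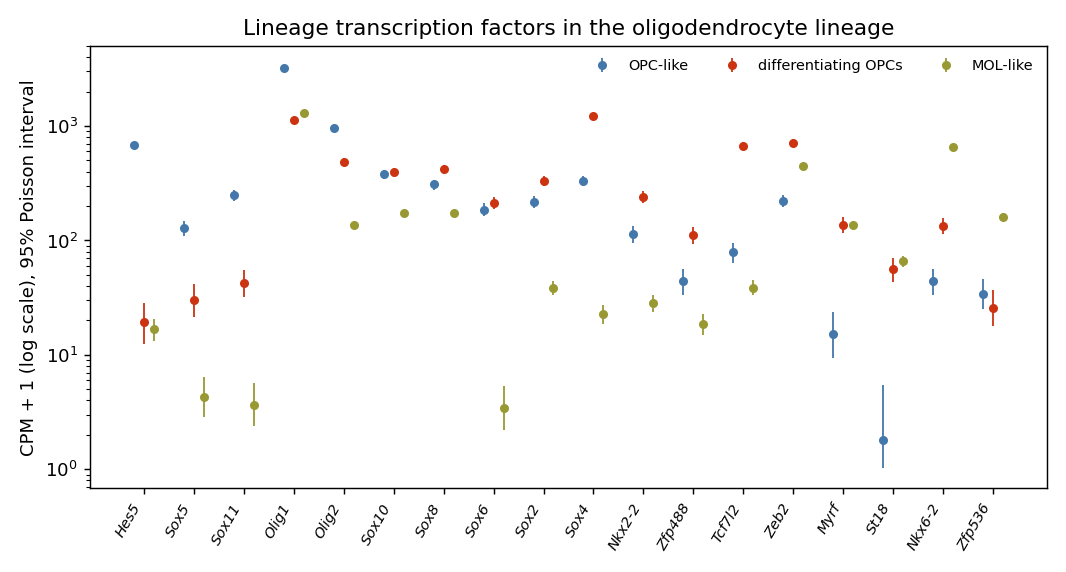
CPM plus 1 on a log scale of 18 lineage transcription factors in OPC-like cells, differentiating OPCs and MOL-like cells, with exact Poisson 95% intervals. Sox4 and Tcf7l2 were highest in differentiating OPCs of the 3 groups, Hes5 was at 18.3 CPM against 679 CPM in OPC-like cells, and Nkx6-2 and Zfp536 were highest in MOL-like cells.

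Genes of the precursor state were low, and all 9 OPC genes compared were lower in members than in OPC-like cells, with a median difference of -3.02. Pdgfra, the receptor for platelet-derived growth factor, had 8 UMIs in members, or 6.65 CPM (2.87 to 13.1), against 913 CPM in OPC-like, 4.42 CPM in MOL-like and 12.7 CPM in microglia-like cells. Cspg5, a proteoglycan, had 42.4 CPM against 3290 CPM. The differences were uneven. C1ql1, a secreted C1q-like protein, had 260 CPM (1368 CPM in OPC-like cells), Matn4, a matrix protein, 258 CPM (859 CPM), and Lhfpl3 103 CPM (746 CPM), all far above the 3.31 to 31.1 CPM of the same genes in MOL-like cells. Of the 5 committed precursor genes compared, 1 was higher (Nkx2-2) and 1 was lower (Ptprz1) than in OPC-like cells, with a median of 0.19, and 5 were higher than in MOL-like cells. Neu4, a sialidase, was within 1 log2 unit of OPC-like cells, with 581 CPM against 383 CPM there and 3.75 CPM in MOL-like cells. Ptprz1, a receptor phosphatase, had 299 CPM against 2162 CPM in OPC-like cells.

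Cell cycle genes were mostly lower than in OPC-like cells. Of 16 cell cycle genes compared with OPC-like cells, 10 were lower and 1 was higher, with a median difference of -1.34. Of 10 compared with MOL-like cells, 3 were higher and 1 was lower, with a median of 0.54. Top2a, Cdk1, Ccnb2 and Mcm5 had 0 UMIs in members, where 3 counts would be 2.49 CPM, against 48.4, 22.2, 18.2 and 29.3 CPM in OPC-like cells. Over 8 genes of mitosis together, members had 24.9 CPM and OPC-like cells 270 CPM. At least 5 UMIs of these genes were found in 0 of 130 members and in 9 of 310 OPC-like cells. Ccnd1, the cyclin that growth factors induce, had 5.81 CPM against 585 CPM, and Ccnd2 17.4 CPM against 142 CPM. In the same cells Cdk4, the kinase partner of these cyclins, had 426, 452, 380 and 352 CPM by barcode number. Its level of 401 CPM (366 to 439) stood above the 284 CPM of OPC-like and 73.1 CPM of MOL-like cells. Brca1, a DNA repair gene counted in this list (chromosome 11, 101488764 to 101551955), was its 1 gene above OPC-like cells. It had 174, 108, 311 and 213 CPM by number, 205 CPM (180 to 232) over all members and a UMI in 86 of them, against 11.1 CPM in OPC-like and 1.99 CPM in MOL-like cells. Members held 82.1% of all its UMIs, and no other named cell type had more than the OPC-like cells.

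Notch signalling genes were mostly lower than in OPC-like cells. Of 11 compared with these, 8 were lower and 0 were higher, with a median of -1.68, while of 11 compared with MOL-like cells, 3 were higher and 0 were lower, with a median of 0.29. The ligands Dll1 and Dll3 had 1.66 and 4.15 CPM in members against 60.3 and 84.8 CPM, and the receptor Notch1 had 24.1 CPM against 71.4 CPM. Cntn1, an adhesion molecule, had 281 CPM against 922 CPM. Rbpj, the transcription factor of the pathway, had 39.0 CPM in members and 30.1 CPM in OPC-like cells.

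The ligand Bmp4 was high in members by the rule, and the other BMP genes had a lower sum than in OPC-like cells. Of the 24 other genes of the list, 8 had 0 UMIs in members. Among these were the antagonists Nog, Chrd, Fst, Grem1 and Sostdc1 and the receptor Bmpr1b. The summed level of the 24 genes was 255 CPM, against 723 CPM in OPC-like and 316 CPM in MOL-like cells. By barcode number the sum in members was 224, 174, 295 and 316 CPM, so that number 4 was at the MOL-like level. Genes at 0 are common in the matrix, as of 27998 genes only 15370 outside the rule had a UMI in members or OPC-like cells. The receptors Bmpr1a and Bmpr2 had 16.6 and 31.6 CPM, and Bmpr2 was found in 33 cells. The Id genes, which BMP signals induce in many cells, had 4.15 CPM for Id1, 16.6 for Id2, 19.9 for Id3 and 4.15 for Id4, while the highest level of Id1 in any named type was 1288 CPM in endothelial-like cells. Of 9 genes compared with MOL-like cells, 0 were higher and 2 were lower, with a median of 0.13. Of 8 genes compared with OPC-like cells, 1 was higher and 2 were lower, with a median of -0.77. The higher gene was the inhibitor Smad7, with 64.0 CPM against 14.3 CPM. This value rested on few cells, since 51.9% of its UMIs lay in 10 members. Without those it was 35.2 CPM, and 0 of 8 genes were higher.

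Most Wnt genes were near the level of OPC-like cells, as were most of all 6938 genes compared (6.43% higher and 12.6% lower). Of 9 Wnt genes compared with OPC-like cells, 7 were within 1 log2 unit, and the median difference was -0.30. Tcf7l2 was higher, and the receptor Fzd9 was lower (4.98 CPM against 186 CPM). Of 12 compared with MOL-like cells, 2 were higher and 2 were lower, with a median of 0.34. Axin2, a target of the pathway, had 36.4, 8.29, 13.1 and 16.6 CPM by barcode number and 19.9 CPM (12.8 to 29.7) over all members. In OPC-like cells it had 17.4 CPM and in MOL-like cells 3.09 CPM. Lef1 had 1 UMI, and Notum, Apcdd1, Sp5 and Tcf7 had 0 UMIs in members. Ctnnb1, which encodes β-catenin, had 109 CPM against 167 CPM in OPC-like cells.

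Genes of newly formed oligodendrocytes were higher in members than in both neighbours, in 6 of 6 genes compared with OPC-like cells and in 6 of 6 compared with MOL-like cells, with median differences of 2.51 and 2.60. The list was written for this stage and overlaps the genes by which the stage is known. Nfasc, an adhesion molecule of the axon contact, had 953, 788, 980 and 991 CPM by barcode number, against 52.3 CPM in OPC-like and 263 CPM in MOL-like cells. Itpr2, a calcium channel of the endoplasmic reticulum, had 499, 531, 479 and 465 CPM, against 92.8 and 12.1 CPM, and was found in 127 members. Both genes were alike in the 4 numbers. Rras2 and Cemip2 were different. Of their UMIs in members, 84.8% and 95.3% lay in a sub-cluster of 10 cells described below, and without it their levels were 27.6 and 2.86 CPM in place of 159 and 53.2 CPM. Both then lay within 1 log2 unit of OPC-like and MOL-like cells, and 4 of 6 genes remained higher than in each group.

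Genes of the cytoskeleton and process outgrowth stood high as a group. Of 22 compared with OPC-like cells, 17 were higher and 1 was lower, with a median difference of 2.25, and of 23 compared with MOL-like cells, 14 were higher and 2 were lower, with a median of 3.31. Map1b, a microtubule-associated protein, had 2105, 1787, 2390 and 2470 CPM by barcode number, against 144 CPM in OPC-like and 135 CPM in MOL-like cells. Dynll2, a dynein light chain, had 2149 CPM against 235 and 130 CPM. Tns3, a protein of focal adhesions, had 1039 CPM against 148 and 85.5 CPM, and Rnd2, a small GTPase, 636 CPM against 43.6 and 55.0 CPM. Pfn2, an actin-binding profilin outside the list, had 2681 CPM, and its highest level in another named type was 499.7 CPM in neuron-like cells. The cytoskeletal genes Pak4 (401 CPM against 33.3 and 18.8 CPM) and Epb41l2 (585 CPM against 18.2 and 44.4 CPM) followed the same order. Tubulins were split: Tubb2b had 1430 CPM against 665 and 34.5 CPM, while Tubb4a had 1909 CPM against 171 and 2624 CPM. Stmn1, which destabilises microtubules, was the 1 gene lower than in OPC-like cells, at 76.4 CPM against 291 CPM there and 2561 CPM in MOL-like cells.

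Myelin genes fell into several groups. Against OPC-like cells 15 of 18 were higher, with a median difference of 2.27, and against MOL-like cells 14 of 22 were lower and 2 were higher, with a median of -1.90. A first group was within 1 log2 unit of MOL-like cells in the sum over all members. Mbp, the myelin basic protein (chromosome 18, 82475146 to 82585637), had 9853, 7141, 9937 and 7532 CPM by barcode number. Its 8751 CPM (8585 to 8920) in members stood beside 8259 CPM in MOL-like and 98.3 CPM in OPC-like cells. The members were unlike in this gene, with 1073 to 21995 CPM over the sub-clusters described below, and 10 cells held 32.1% of its UMIs. Cnp, an enzyme of non-compact myelin, had 6814 CPM against 8421 and 369 CPM, and the lipid enzymes Ugt8a (703 CPM against 934 CPM in MOL-like cells) and Gal3st1 (194 CPM against 152 CPM) were within 1 log2 unit of MOL-like cells too. Sirt2, a deacetylase of the myelin sheath, had 7625, 7009, 7321 and 6621 CPM by number. Together with Cd9, a tetraspanin, it was higher than in both neighbours: Sirt2 had 7174 CPM against 478 and 1490 CPM, and Cd9 had 7975 CPM against 1816 and 1386 CPM in OPC-like and MOL-like cells.

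A second group was between the neighbours. Mag had 1707 CPM and Cldn11, a claudin, 2539 CPM, against 3914 and 8154 CPM in MOL-like cells. The sub-cluster of 10 cells held 61.1% of the Mag UMIs and 49.2% of the Cldn11 UMIs of members, and without it the levels were 762 and 1478 CPM. Mog had 196 CPM against 2296 CPM in MOL-like and 20.6 CPM in OPC-like cells. With each cell of at least 3000 UMIs thinned to that number, Mog was detected in 33.8% of members, in 5.94% of the OPC-like and in 2.82% of the microglia-like group.

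Other myelin genes were far below MOL-like cells, and some of them were at the level of cells that should lack them. Car2 had 27.4 CPM in members, 38.1 CPM in OPC-like and 38.9 CPM in microglia-like cells, against 3742 CPM in MOL-like cells. Aspa had 7.48 CPM, 7.14 CPM and 8.97 CPM in the same order, against 1250 CPM. Klk6 had 1 UMI in members. Mobp had 345 CPM in members, of which 88.0% of UMIs lay in the 10 cells. Without these it had 47.6 CPM, against 59.0 CPM in microglia-like, 56.3 CPM in OPC-like and 4245 CPM in MOL-like cells. Trf, the iron carrier transferrin, had 189 CPM against 51.5 CPM in OPC-like and 6677 CPM in MOL-like cells. The 10 cells held 48.9% of its UMIs in members, and without them it had 110 CPM. Apod had 82.2 CPM against 45.2 CPM in OPC-like and 2629 CPM in MOL-like cells. The iron store Fth1 and the prostaglandin synthase Ptgds, chosen after their values were seen, were also among the 20 genes farthest below MOL-like cells, with 822 CPM against 19150 CPM and 447 CPM against 23868 CPM. In OPC-like cells these genes had 754 and 270 CPM.

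Matrix and adhesion genes separated members from MOL-like more than from OPC-like cells. Of the matrix and perineuronal net genes, 9 of 13 were higher and 1 was lower than in MOL-like cells, with a median of 2.20. Against OPC-like cells 3 of 16 were higher and 6 were lower, with a median of -0.45. Tnr (above) and Bcan, another component of perineuronal nets with 1047 CPM, had 9.94 and 41.1 CPM in MOL-like cells. Col9a3, a collagen chain, had 724 CPM (677 to 774), and the next named type, OPC-like cells, had 121 CPM. Ncan had 19.9 CPM against 258 CPM in OPC-like cells. Adamts4, a protease that cleaves such proteoglycans, had 342, 249, 361 and 495 CPM by barcode number. It stood at 366 CPM in members, 323 CPM in MOL-like and 4.76 CPM in OPC-like cells, but 56.7% of its UMIs lay in the 10 cells, without which it had 182 CPM. Among adhesion molecules 13 of 20 were higher and 1 was lower than in MOL-like cells, and 5 of 18 higher and 2 lower than in OPC-like cells. Opcml had 754 CPM against 388 CPM in OPC-like and 14.8 CPM in MOL-like cells, and Mpzl1 1449 CPM against 181 and 58.1 CPM. Epcam, an epithelial adhesion molecule, was found in 76 members with 189 CPM, against 2.38 CPM in OPC-like and 0.663 CPM in MOL-like cells. The only named type with a higher level of Epcam was the pars tuberalis-like cells, with 581 CPM.

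Among guidance genes 7 of 16 were higher and 3 were lower than in OPC-like cells, with a median of 0.50. Without sub-cluster 2 (below) 6 were higher and 4 lower, with a median of -0.18. With cells thinned to 3000 UMIs, 6 were higher and 4 lower, with a median of 0.04. Against MOL-like cells 6 of 15 were higher and 2 were lower, with a median of 0.57, or 0.29 without sub-cluster 2. Plxnb3, a semaphorin receptor of oligodendrocytes, had 216, 145, 157 and 163 CPM by barcode number, against 25.4 CPM in OPC-like and 33.8 CPM in MOL-like cells. Epha4 had 165 CPM against 40.4 and 44.6 CPM, and Sema5a 243 CPM against 86.4 and 10.6 CPM. Lingo1 was lower than in OPC-like cells, with 53.2 CPM against 156 CPM.

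Of 16 glutamate and GABA receptor and channel genes compared with OPC-like cells, 11 were lower and 1 was higher, with a median of -1.71. Against MOL-like cells the direction was the opposite, with 6 of 9 higher and 1 lower and a median of 1.37. The AMPA receptor subunit Gria2 was within 1 log2 unit, with 574, 676, 610 and 548 CPM by barcode number. Its 597 CPM (554 to 643) in members stood beside 652 CPM in OPC-like and 15.2 CPM in MOL-like cells. Gria3 had 49.8 CPM against 198 CPM in OPC-like cells, the metabotropic receptor Grm5 19.9 CPM against 234 CPM, and the potassium channel Kcnd2 2.49 CPM against 165 CPM. The potassium channel Kcna2 was the 1 higher gene, with 78.9 CPM against 23.8 CPM in OPC-like and 24.5 CPM in MOL-like cells. Kcnj10, an inward rectifier, had 248 CPM against 242 and 254 CPM, which differed little between the 3 groups. Slc1a1, a glutamate transporter outside the list, had 678 CPM against 165 and 11.5 CPM.

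Of 8 G protein-coupled and purinergic receptors compared with OPC-like cells, 1 was higher and 3 were lower, and of 9 compared with MOL-like cells, 2 were higher and 5 were lower, with medians of -0.58 and -1.53. Adora1, an adenosine receptor, had 4.98 CPM against 158 CPM in OPC-like and 69.8 CPM in MOL-like cells. Gpr37 and Lpar1, which mature oligodendrocytes express, had 59.0 and 126 CPM against 965 and 584 CPM, and 63.4% and 75.0% of their UMIs in members lay in the 10 cells. Among hormone and nuclear receptors, Thra, the thyroid hormone receptor α (chromosome 11, 98740638 to 98769006), had 1012, 883, 806 and 957 CPM by barcode number. Its 920 CPM (867 to 976) in members were above OPC-like (308 CPM, 1.55 log2 units) and above MOL-like cells (341 CPM, 1.41 log2 units). The highest level in another named type was 382 CPM in tanycyte-like cells. Thra was the 1 of 5 genes of this list higher than in OPC-like cells. The glucocorticoid receptor Nr3c1 had 49.0 CPM against 134 and 129 CPM. Of the 22 genes of this list 5 had 0 UMIs in members, and its summed level was 1092 CPM, most of it Thra, against 714 CPM in OPC-like and 572 CPM in MOL-like cells.

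The mTORC1 pathway differed little, as did most genes. Over all genes, 6.43% were higher and 12.6% lower than in OPC-like cells, and 13.9% higher and 7.87% lower than in MOL-like cells. Of 18 genes of the pathway 2 were higher and 0 were lower than in OPC-like cells, with a median of -0.12. Of 24 compared with MOL-like cells, 4 were higher and 1 was lower. Rictor, which belongs to the sister complex mTORC2, was the main exception with 174, 133, 184 and 196 CPM by barcode number. It had 174 CPM (151 to 199) in members, 34.9 CPM in OPC-like and 34.7 CPM in MOL-like cells. Irs1 had 42.4 CPM against 15.1 and 3.09 CPM. Of the cholesterol and lipid synthesis genes, 3 of 27 were higher and 1 was lower than in OPC-like cells, with a median of 0.36. Without sub-cluster 2 (below) 2 were higher and 2 lower, with a median of 0.14. Against MOL-like cells 1 of 31 was higher and 7 were lower, with a median of -0.35, and without sub-cluster 2 0 were higher and 10 lower. The summed level of the list was 4233 CPM in members, 7537 CPM in OPC-like and 7115 CPM in MOL-like cells. Elovl7, an enzyme of fatty acid elongation, was 3.48 log2 units above OPC-like cells, at 357 CPM against 23.0 CPM, and had 328 CPM in MOL-like cells. Hmgcs1, an early enzyme of cholesterol synthesis, had 219, 153, 243 and 499 CPM by number, highest in number 4, and 282 CPM over all members against 564 CPM in MOL-like cells.

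In the list of survival and death genes 2 of 10 were higher and 1 was lower than in OPC-like cells. Pdcd4, an inhibitor of translation, had 1338 CPM (1274 to 1405), against 121 CPM in OPC-like and 41.1 CPM in MOL-like cells. Tfeb, a regulator of lysosomes, had 67.3 CPM against 15.9 CPM in OPC-like and 51.0 CPM in MOL-like cells. Bcl2 had 4.98 CPM against 66.6 CPM in OPC-like cells, and Bcl2l1 32.4 CPM against 268 CPM in MOL-like cells.

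**Figure D3:**
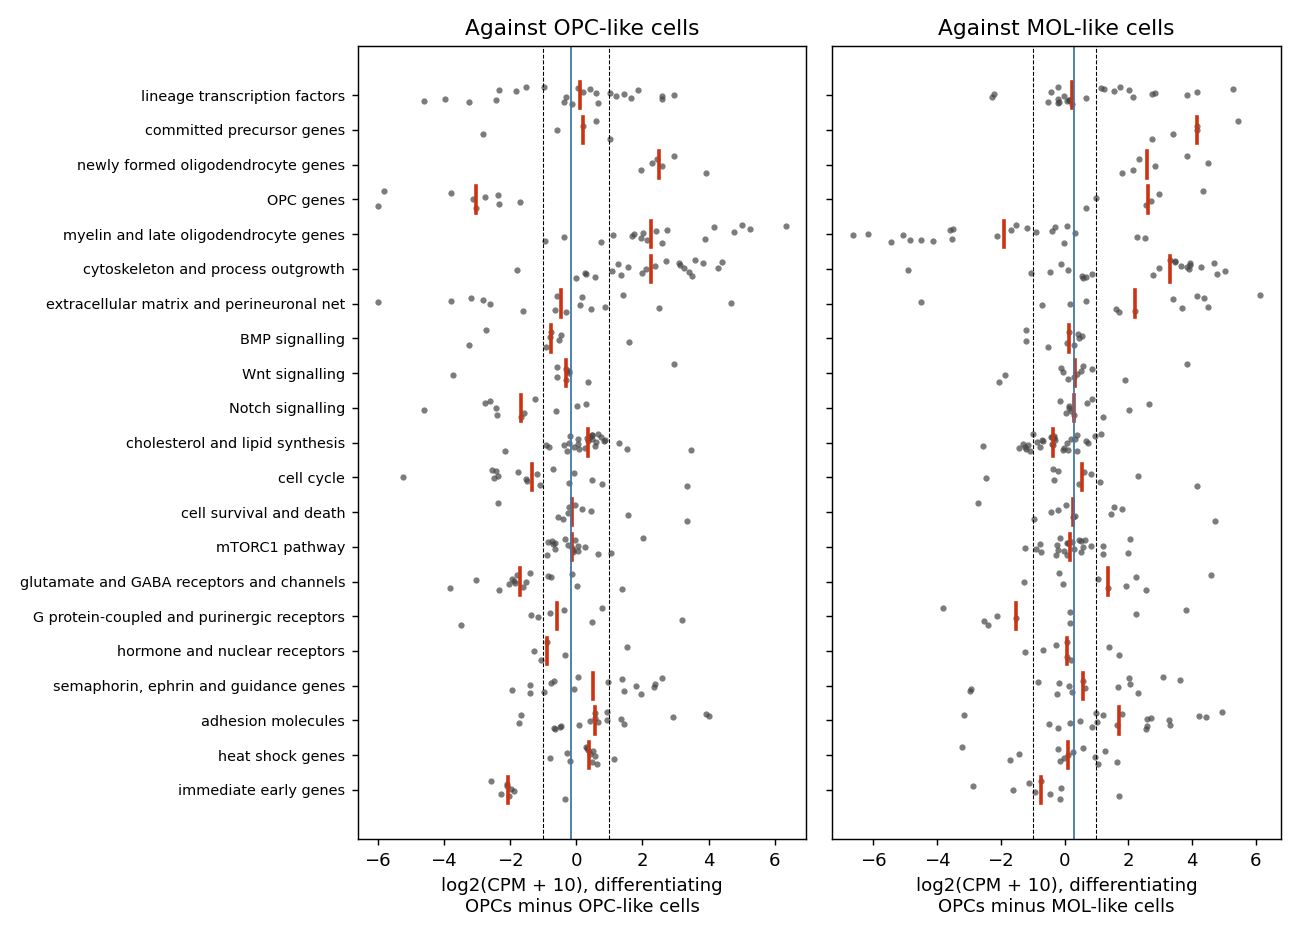
Difference in log2(CPM + 10) of differentiating OPCs from OPC-like cells (left) and MOL-like cells (right) for the genes of 21 lists, 1 point per gene with at least 50 UMIs in the pair of groups, without the genes of the rule. Red bars are list medians, dashed lines mark 1 log2 unit and blue lines the median over all genes (-0.17 and 0.28); cytoskeletal genes lay above both neighbours, with medians of 2.25 and 3.31.

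The 20 genes farthest above the highest of all other named cell types describe how members stand out among these types. Clusters that took no name, of 195, 324 and 41 cells, and the 3 cells rich in haemoglobin transcripts were not among the types compared. The first was the long non-coding transcript 9530059O14Rik (chromosome 9, 122572499 to 122679596), with 684, 622, 761 and 695 CPM by barcode number. It had 694 CPM (647 to 742) and a UMI in 127 members, against 31.1 CPM in MOL-like cells, the next type, and a UMI in 0.249% of microglia-like cells. Rassf10, of the Ras association family, had 204 CPM against 8.63 CPM in tanycyte-like cells. It was followed by Brca1, a gene listed only by its identifier ENSMUSG00000029333 (246 CPM against 16.8 CPM), Gp1bb (164 CPM against 8.89 CPM) and Matn1, a matrix protein with 135 CPM against 6.34 CPM. Members held between 62.4% and 82.7% of the UMIs of these 6 genes. The remaining 14 were Bcas1, Rnd2, Pak4, Tmem108, Fkbp15, Tns3, Pik3r3, Bfsp2, Mycl, Col9a3, Pycr1, Ust, Pfn2 and Cnksr3. Tmem108, a membrane protein, had 937 CPM against 108 CPM in OPC-like cells, and Mycl, a MYC family factor, 622 CPM against 101 CPM. Cnksr3 had 54.4% of its UMIs in the 10 cells.

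Markers of other cell types were low. The marker lists held 8 to 10 genes each. The 10 microglia-like genes summed to 207 CPM in members, or 0.350% of their level in microglia-like cells, with 0 of 10 genes at 0. Astrocyte-like genes reached 1.35% of their own level, neuron-like genes 2.34%, ependymocyte-like genes 0.900%, and the lists of VLMC-like, mural-like, endothelial-like, macrophage-like and pars tuberalis-like cells between 0.0867% and 0.446%. Genes at 0 UMIs in members numbered 3 of 8 for macrophage-like, 2 of 9 for mural-like and 2 of 10 for pars tuberalis-like cells. Tanycyte-like genes reached 7.48%, most of it from Vcan (202 of 248 CPM), which the lineage expresses itself. The 10 MOL-like markers summed to 4900 CPM, 16.6% of their level in MOL-like cells (Mal, Ermn and Opalin of the rule are among them), and the 8 OPC-like markers to 744 CPM, 14.7% of their level in OPC-like cells. The 8 neuropeptide genes, which free RNA spreads to all cells, summed to 199 CPM in members, 211 CPM in OPC-like and 194 CPM in MOL-like cells. Their part in the results was not tested.

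Immediate early genes, which stimulation and dissociation induce, were low against OPC-like cells. Of 8 compared with OPC-like cells, 7 were lower and 0 higher, with a median of -2.06, and of 9 compared with MOL-like cells, 3 were lower and 1 was higher, with a median of -0.72. Fos had 5.81 CPM against 84.8 CPM in OPC-like and 16.1 CPM in MOL-like cells, and Jund 105 CPM against 436 and 833 CPM. Of 12 heat shock genes 1 was higher than in OPC-like cells, Cryab, with 1119 CPM against 506 CPM, and 0 were lower.

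Levels in members were compared between the 4 barcode numbers, which may differ in condition, library or both. Among 4046 genes with at least 50 UMIs in members, the median range over the numbers was 0.51 on the log2(CPM + 10) scale, and 335 genes (8.28%) had a range of at least 1 log2 unit. The 10 genes of widest range were H2-K1, Syt4, Mobp, Hsph1, Prom1, Cox6b2, Pmm1, Tmem219, Stmn1 and Tubb3. For several of these 1 cell or a few decided the range. H2-K1, an antigen presentation gene, had 11.2, 66.4, 22.9 and 150 CPM by number, and 1 member held 40 of its 72 UMIs. Of the 77 UMIs of Syt4, 31 lay in 1 member, as did 122 of the 415 UMIs of Mobp and 29 of the 85 UMIs of the neuronal tubulin Tubb3. The chaperone Hsph1 was more evenly spread, with at most 6 UMIs in a cell. It had 72.9, 29.0, 170 and 166 CPM by number in members, and 62.8, 51.9, 128 and 118 CPM in all other cells. Numbers 3 and 4 were high and numbers 1 and 2 low in members and in all other cells alike. Dnajb1, another chaperone, showed the same split with 67.3, 49.8, 167 and 173 CPM in members. Cox6b2 and Tmem219 were lowest in number 3, with 9.84 CPM each against 43.2 to 70.5 and 44.8 to 66.5 CPM in the others. With 1 sample and no label for the numbers, these differences cannot be tied to fasting or refeeding.

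**Figure D4:**
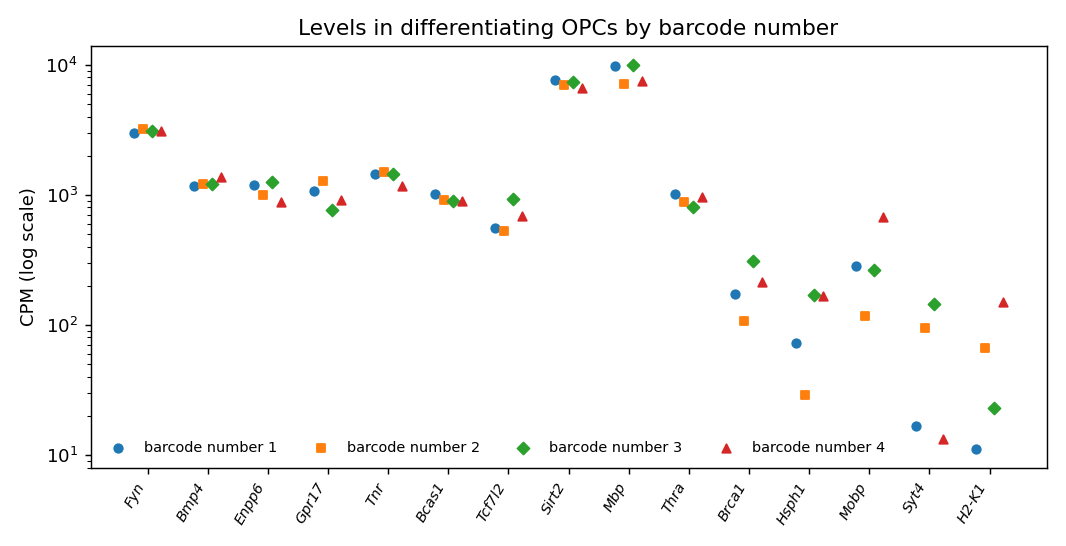
CPM on a log scale in differentiating OPCs for 15 genes, 1 point per barcode number. The 4 points lay close for Fyn (2968 to 3197 CPM) and apart for Hsph1 (29.0 to 170 CPM) and H2-K1 (11.2 to 150 CPM), where 1 cell held 40 of 72 UMIs.

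The members were then clustered among themselves without the 7 genes of the rule, which gave 6 sub-clusters of 39, 10, 18, 20, 25 and 18 cells. Genes that lead a sub-cluster define it and are no independent result. Sub-cluster 1 (39 cells) was the shallowest, with a median of 6152 UMIs per cell. It was led by Ramp1, a subunit of calcitonin-family receptors, with 521 CPM against 53.9 CPM in the other members and 648 CPM in OPC-like cells, and by Cacng4, Brinp3, Susd5, Rgcc and Ntm. C1ql1 had 642 CPM there (547 to 747), against 6.5 to 299.9 CPM in the other 5 and 1368 CPM in OPC-like cells. Ptprz1 (572 CPM), Lhfpl3 (191 CPM) and Cspg5 (77.8 CPM) were also highest in this sub-cluster of the 6 but below their 2162, 746 and 3290 CPM in OPC-like cells. Gpr17 was highest in this sub-cluster, with 1641 CPM, while Mbp had 1073 CPM, Mag 46.7 CPM and Nfasc 109 CPM, the lowest of the 6. It held 13 of 39, 11 of 30, 4 of 31 and 11 of 30 members of barcode numbers 1 to 4, fewest in number 3.

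Sub-cluster 2 (10 cells) was the deepest, with a median of 14881.5 UMIs, and held the 5 members of the MOL-like cluster. Among its 10 leading genes were Mobp, with 2372 CPM against 47.6 CPM in the other members, and Cemip2, Car14, Rras2, Tmem125, Gas7, Lpar1, Gsto1 and Pex5l. Mag reached 8155 CPM there (7710 to 8619) and Mbp 21995 CPM, above the 3914 and 8259 CPM of MOL-like cells. Adamts4 had 1624 CPM against 323 CPM in MOL-like cells, and Tcf7l2 had 1261 CPM, the highest of the 6. Bmp4 had 1 UMI in these cells, or 6.5 CPM (0.165 to 36.2), and Cd9 had 611 CPM against 5842 to 10323 CPM in the other 5. Mog had 312 CPM there against 2296 CPM in MOL-like cells. Opalin had 19.5 CPM, but its UMIs were limited by the rule. The 10 cells came from all 4 numbers, with 3, 1, 3 and 3 cells.

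Sub-cluster 3 (18 cells) was led by Syt4, a synaptotagmin with 341 CPM against 22 CPM in the other members, and by Btg1, Pik3r3, Oat, Igsf11, Dct and Fam13c. Syt4 was found in 8 of the 18 cells, with 54 UMIs, and 1 member held 31 of its 77 UMIs over all members. Sub-cluster 3 had the highest Enpp6 (1859 CPM) and Sox4 (2403 CPM) of the 6, with Bmp4 at 670 CPM, C1ql1 at 31.6 CPM and Mag at 2295 CPM. The leading genes of sub-clusters 4, 5 and 6 differed by at most 1.67 log2 units from the other members. Bmp4 had 1252, 1814 and 1894 CPM in these 3, and 1334 CPM in sub-cluster 1. In order of Mbp, the sub-clusters stood as 1 (1073 CPM), 5 (5697 CPM), 6 (6357 CPM), 4 (9923 CPM), 3 (14068 CPM) and 2 (21995 CPM). Mbp was not left out of the clustering, so that this order describes the sub-clusters and is no independent result. The Poisson intervals of neighbours, which cover counting error only, overlapped only between 5 and 6. Gpr17 had 1641, 1225, 1394, 656, 386 and 201 CPM in that order of sub-clusters. The rule used Gpr17, Bmp4 and Enpp6 through their sum. Levels of these 3 genes in the sub-clusters are therefore a description only and are not independent of each other. Median depth also differed between them, from 6152 UMIs in sub-cluster 1 to 14881.5 in sub-cluster 2. With every member thinned to 3000 UMIs, the median of Mbp was 2, 14, 17, 30, 39.5 and 66.5 UMIs per cell in the same order of sub-clusters, so that the order of medians was also found at equal depth. The cells of neighbours overlapped, with 0 to 13, 4 to 36, 5 to 33, 15 to 46, 22 to 69 and 29 to 111 UMIs.

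**Figure D5:**
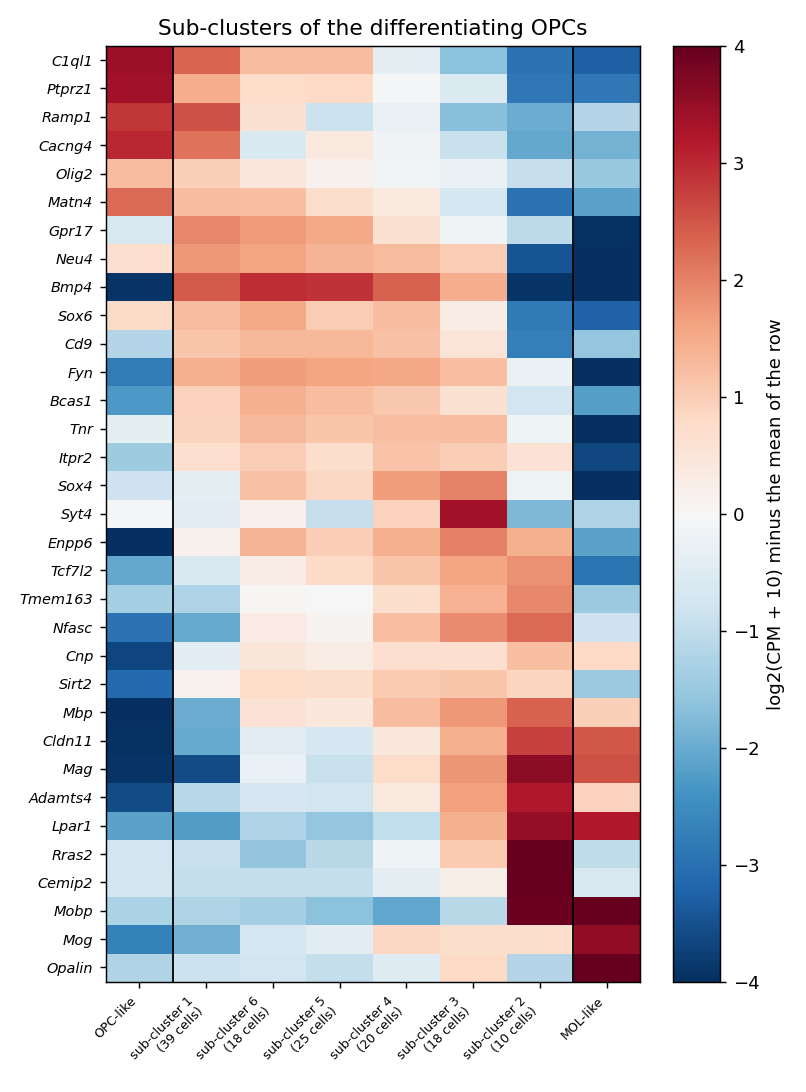
log2(CPM + 10) minus the mean of each row (colour, from -4 to 4) for 33 genes in OPC-like cells, the 6 sub-clusters of differentiating OPCs and MOL-like cells. Precursor genes such as C1ql1 were highest in sub-cluster 1 of the 6 (642 CPM). In sub-cluster 2 Bmp4, a gene of the rule, was at 6.5 CPM and Mag reached 8155 CPM.

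Sums over gene lists, without the genes of the rule, were also taken cell by cell at 3000 UMIs. The myelin and late genes had a median of 84 UMIs (46 to 130) in sub-cluster 1 and of 307 UMIs (251 to 363) in sub-cluster 2, and the cells of these sub-clusters did not overlap. These genes took part in the clustering. Across the 130 cells, the summed OPC genes (median 2 UMIs, 0 to 11) and the summed myelin and late genes (median 155 UMIs, 46 to 363) had a Spearman correlation of -0.68 and a Pearson correlation of -0.63. The myelin and late genes and the newly formed oligodendrocyte genes (median 6 UMIs, 0 to 28) had 0.79 on both measures. The committed precursor genes went with the OPC genes (0.43 and 0.36) and against the myelin genes (-0.52 and -0.54). These values describe the cells of 1 sample, which share libraries and an equal number of UMIs.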

How the data were processed

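Single cells of the ME of fasted and refed mice were measured in 4 droplet libraries. By the submitters' processing notes, the authors used Cell Ranger 2.0 and the mm10 genome. The deposited matrix gives UMI counts per gene and cell and had not been normalized. The 32 sample records are parts of the 4 libraries and were not taken as replicates. Columns of per-sample values left unused numbered 0.

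Gene symbols were matched for 27645 of 27998 identifiers, and positions are those of the GENCODE vM21 annotation of GRCm38. Haemoglobin genes made up at least 10% of the UMIs of 3 cells, which were kept out of the naming. After scaling each cell to the median depth and a log transform, Leiden clusters (resolution 1, 15 neighbours, 30 principal components, 2000 variable genes) were computed with scanpy 1.11.5 and igraph 0.11.9. A cluster took the name of the best of 13 marker lists when its score was at least 0.3 and 1.5 times the next, with at least 3 markers 4 times above the median cluster. These thresholds, the rule for members and the gene lists were chosen with earlier results of these data known. Members were sub-clustered on 10 principal components without the 7 rule genes. Scrublet called 50 doublets (0.836%), which were kept. The filter of 50 UMIs and the pseudocount of 10 CPM were used throughout.

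Genes named are the rule genes and markers, members of the 24 lists, the 20 genes farthest above OPC-like cells, MOL-like cells and all other named types, the 10 that varied most between barcode numbers and those leading a sub-cluster. Fth1 and Ptgds fall outside this rule and were named after their values were seen. A comparison of refed with fasted mice was not made. The step that counts genes was tried on counts simulated from the summed OPC-like profile, with changes set only in genes of at least 200 UMIs. The simulation had no spread between cells, so it does not bear on low genes or on differences between cells. Strand of the counting and the cell-calling rule are not given in the sources used here. Some genes counted in the lists are not reported here by name.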

Additional observations from a re-analysis of the deposited data

How the results depend on the processing

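Of 79 values recomputed under the alternatives for the 5 results (the number of members and the 4 gene counts), 75 stayed within 1.5 times the reported value. This tally overstates stability, as some alternatives could not move a value. Lowering the limit for Mal, Ermn and Opalin together to 10 UMIs changed nothing, as no member had more than 6. A filter on depth and mitochondrial share changed nothing either, as it removed no cell of the compared groups. Member counts with a barcode number left out follow from the members each number held. With at least 200 UMIs required, 249 genes were higher and 275 lower than in OPC-like cells and 602 higher than in MOL-like cells, since fewer genes were compared. Without a filter, 1417 genes were lower than in OPC-like cells, as more genes were compared. Leaving out each barcode number in turn gave 91 to 100 members, 411 to 443 genes higher and 714 to 777 lower than in OPC-like cells, and 1025 to 1078 higher and 624 to 641 lower than in MOL-like cells. Minimums of 3 or 10 UMIs for Fyn and the summed markers gave 138 and 119 members. Without the 10 members of sub-cluster 2, an alternative chosen after seeing the data, 409 genes were higher and 860 lower than in OPC-like cells. Members were deeper than both comparison groups. With cells thinned to 3000 UMIs, 321 genes were higher and 648 lower than in OPC-like cells, and 935 higher and 599 lower than in MOL-like cells. This left out 24 OPC-like and 5 MOL-like cells with fewer UMIs. A gene absent from 130 cells may be present below the level of 3 counts (2.49 CPM).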
